A study of Mus musculus with 4 samples.

Results

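The data concern 6 genes through which endothelium controls clotting, *F8*, *Vwf*, *Thbd*, *Procr*, *Tfpi* and *Plat*, of 33696 genes counted in 2 single-cell libraries of mouse liver. The genes were taken by symbol, and all 6 were found in both count matrices. The study traced the descendants of yolk sac endothelium. Livers were taken at 2 months of age from mice that carried both *Stab2-CrexERT2* and *R26-LSL-tdT* and had received tamoxifen at E9.5, so cells in which Cre driven by the endothelial gene *Stab2* was active on that embryonic day, and their descendants, carried tdTomato. The Cre cassette was inserted into the endogenous *Stab2* locus, and both sorts came from mice of this genotype, which the labels abbreviate as S2, so neither sort is a genotype control. CD45+ tdTomato+ cells gave 1 gene expression library and CD45+ tdTomato- cells gave 1, both made with the 10x Chromium 5' kit. By the labels, tdTomato+ cells were batch 1 and tdTomato- cells batch 2, so sort and batch cannot be told apart. How many mice went into a library is not given in the sources used here, and all barcodes of a library were therefore treated as 1 sample.

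Endothelium keeps blood fluid and, when a vessel is injured, helps it to clot. Factor VIII, encoded by *F8*, is the cofactor of factor IXa and is made mainly by liver sinusoidal endothelial cells (LSECs), while von Willebrand factor, encoded by *Vwf*, carries factor VIII in plasma, tethers platelets and is typical of the endothelium of larger vessels. Thrombomodulin (*Thbd*) binds thrombin and turns it toward activation of protein C, the endothelial protein C receptor (*Procr*) presents protein C to that complex, tissue factor pathway inhibitor (*Tfpi*) blocks factor Xa and the tissue factor complex, and tissue plasminogen activator (*Plat*) starts the breakdown of fibrin.

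The tdTomato+ library held 203366009 UMIs (unique molecular identifiers, each counting 1 captured RNA molecule whatever its length, so that no length scaling was made) in 17957 barcodes with a median of 8955, and the tdTomato- library 156771260 UMIs in 18444 barcodes with a median of 7128. After barcodes with fewer than 300 genes or more than 10% mitochondrial counts were left out, 17509 and 18173 cells remained. The files carry no cell annotation, so the cells were clustered and the clusters named from marker genes, and each name ends in "-like" for that reason. Among tdTomato+ cells 6180 were endothelial-like, against 22 among tdTomato- cells. Counted the same way, the Kupffer-like class held 800 and 174, the monocyte-like class 602 and 375, the dendritic-like class 423 and 324, the T-like class 2943 and 12278, the NK-like class 456 and 174, and the B cell-like class 333 and 506. Although both sorts were for CD45, the tdTomato+ endothelial-like cells carried *Ptprc*, the CD45 gene, at 27.3 CPM (the UMIs of a gene summed over the cells of a class, per 1000000 UMIs of all genes), against 1500.3 CPM in the T-like cells of the same library, while their *Kdr*, *Clec4g* and *Stab2* were at 1580, 4907 and 3461 CPM. A further 5009 tdTomato+ and 312 tdTomato- cells lay in clusters that mixed endothelial RNA with the RNA of another cell type and were kept apart. Each sort gave 1 library, so no test was possible, and nothing here carries replicate error. Intervals are at 95% and cover counting error alone: exact Poisson for levels, exact binomial for shares and exact conditional binomial for ratios. Where no UMI was found, the share said to be allowed is instead 3 over the number of cells, which is lower than the upper end of the exact interval.

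*F8* (ENSMUSG00000031196) lies on the minus strand of chromosome X from 75172715 to 75382615 (GRCm38, GENCODE M21). This span overlaps *Fundc2* on the plus strand, which was at 101 CPM in endothelial-like and 84.5 CPM in T-like cells of the tdTomato+ library. Whether the counting used strand is not given in the sources used here. *Vwf* (ENSMUSG00000001930) lies on chromosome 6 from 125546774 to 125686679 and *Plat* (ENSMUSG00000031538) on chromosome 8 from 22757727 to 22782844, both on the plus strand. Chromosome 2 carries *Thbd* (ENSMUSG00000074743) from 148404466 to 148408188 and *Tfpi* (ENSMUSG00000027082) from 84432855 to 84476775 on the minus strand, and *Procr* (ENSMUSG00000027611) from 155751117 to 155755471 on the plus strand.

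RefSeq promoter windows of GRCm38.p6, from 250 bases before to 50 bases after an annotated start, were matched by symbol for 3 of the 6 genes, *F8*, *Procr* and *Tfpi*. These genes are shown because no window was matched for the others, and they were not chosen by their levels. They took 3 different patterns in the cells described here, with *F8* highest in sinusoidal endothelium, *Tfpi* in sinusoidal endothelium and, in the tdTomato- library, next in Kupffer-like cells, and *Procr* in Kupffer-like cells and in 1 endothelial cluster. Capitals mark matches, on either strand, to letters bound by factor families known in endothelium: AGATAA for the GATA family, AGGAAG for the ETS family, CACCC for the KLF family and ACAAT for the SOX family. Of 32851 windows in the table, 11.2% held the GATA letters, 35.4% the ETS letters, 57.5% the KLF letters and 31.0% the SOX letters, so a match describes the window and marks no binding site.
F8 (chrX:75379992-75380291, minus strand): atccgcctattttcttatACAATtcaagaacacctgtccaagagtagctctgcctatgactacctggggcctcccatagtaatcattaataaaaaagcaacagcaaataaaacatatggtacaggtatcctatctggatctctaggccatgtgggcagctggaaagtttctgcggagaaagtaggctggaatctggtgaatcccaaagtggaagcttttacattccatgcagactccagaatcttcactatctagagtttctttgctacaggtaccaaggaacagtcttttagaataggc
Tfpi (chr2:84476710-84477009, minus strand): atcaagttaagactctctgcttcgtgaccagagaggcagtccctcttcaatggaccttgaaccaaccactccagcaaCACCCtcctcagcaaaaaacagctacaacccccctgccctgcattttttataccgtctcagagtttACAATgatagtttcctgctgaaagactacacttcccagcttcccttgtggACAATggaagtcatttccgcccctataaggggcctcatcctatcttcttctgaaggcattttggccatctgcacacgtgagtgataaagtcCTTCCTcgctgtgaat
Procr (chr2:155750967-155751266, plus strand): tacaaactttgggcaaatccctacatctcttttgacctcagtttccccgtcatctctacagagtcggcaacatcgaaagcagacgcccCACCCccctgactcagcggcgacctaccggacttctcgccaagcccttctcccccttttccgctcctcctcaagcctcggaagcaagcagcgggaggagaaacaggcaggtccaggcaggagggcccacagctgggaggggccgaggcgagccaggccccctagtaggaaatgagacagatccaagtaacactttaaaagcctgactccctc
The *F8* window held 1 match, to the SOX letters, and the *Procr* window 1, to the KLF letters. The *F8* window lies wholly inside the GENCODE span of *F8*, whose 5' end on the minus strand is at 75382615. It thus belongs to a RefSeq start within that span. The *Tfpi* window held 2 SOX matches, 1 KLF match and 1 ETS match, and a second *Tfpi* window (chr2:84474125-84474424) was the only one of the 4 with a GATA match.

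*F8* was the most widely detected of the 6 genes in endothelial-like cells. In the tdTomato+ library these cells held 99125 of the 183753 *F8* UMIs and a level of 1976 CPM (1963 to 1988), with a median of 14 UMIs per cell and at least 1 UMI in 99.0% of cells. The other classes of that library followed in the order monocyte-like at 428 CPM (417 to 441), dendritic-like at 333 CPM (321 to 344), Kupffer-like at 188 CPM (181 to 196), B cell-like at 144 CPM (131 to 157), T-like at 20.8 CPM (19.2 to 22.6) and NK-like at 10.96 CPM (8.05 to 14.6), and no neighbours in this order had overlapping intervals. A UMI of *F8* was seen in 13.5% of B cell-like cells, a class not known to make factor VIII. Their median depth was 6614 UMIs, against 7723 in endothelial-like cells, and the B cell-like share is taken here as a yardstick of background. Background was not the same in every class: *F8* was seen in 276 of 2943 T-like and 22 of 456 NK-like cells. In B cell-like cells 9 of 333 cells held 50% of the *F8* UMIs. In the tdTomato- library the 22 endothelial-like cells had 1144 CPM of *F8* (998 to 1306, 219 UMIs) and every other class was below 10 CPM. The highest of these was B cell-like at 8.44 CPM, where 32 of 41 UMIs lay in 1 cell.

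*Vwf* was concentrated in few endothelial-like cells. Its level in tdTomato+ endothelial-like cells was 97.3 CPM (94.6 to 100.1), yet only 10.4% of these cells had a UMI, against 0.901% of B cell-like cells, and 116 cells (1.88%) held 50% of the UMIs. For comparison, 1692 cells held 50% of the *F8* UMIs. A cell that had *Vwf* had a median of 5 UMIs and at most 60. The next classes were dendritic-like at 14.4 CPM (12.2 to 17.0), monocyte-like at 10.1 CPM (8.34 to 12.1) and Kupffer-like at 5.64 CPM (4.42 to 7.09), of which the intervals of Kupffer-like and monocyte-like cells did not overlap and those of monocyte-like and dendritic-like cells did not either. The T-like level of 2.91 CPM came almost wholly from 1 cell with 79 of 83 UMIs and was 0.141 CPM without it. In the tdTomato- library *Vwf* was at 449 CPM (359 to 555, 86 UMIs) in the 22 endothelial-like cells, 10 of which belonged to the *Mgp*-led cluster described further on, and no UMI was found in 506 B cell-like cells, which allows a share of up to 0.593%.

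*Thbd* was shared between endothelial-like and monocyte-like cells. Endothelial-like cells of the tdTomato+ library had 83.3 CPM (80.8 to 85.8), with a UMI in 30.4% of cells, and monocyte-like cells had 29.5 CPM (26.4 to 32.8), with a UMI in 32.6% of cells at a median depth of 17650.5 UMIs. B cell-like cells had a UMI in 3.90%. Thinned to 2000 UMIs per cell, the shares were 11.6% in endothelial-like and 5.70% in monocyte-like cells, so the shares were alike only at full depth, where monocyte-like cells were deeper. Dendritic-like cells at 8.76 CPM, Kupffer-like cells at 7.34 CPM and B cell-like cells at 6.93 CPM had overlapping intervals, and T-like and NK-like cells were below 1 CPM. In the tdTomato- library the monocyte-like level was 38.8 CPM (33.9 to 44.2) with a UMI in 26.4% of cells, while B cell-like cells had 0.412 CPM and a UMI in 0.198%.

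Among the 7 classes compared, *Procr* was the only one of the 6 genes with its highest tdTomato+ level outside the endothelial-like class. Kupffer-like cells had 26.9 CPM (24.1 to 29.9), with a UMI in 18.9% of cells, against 10.7 CPM (9.80 to 11.6) and 7.17% in endothelial-like cells and 1.502% in B cell-like cells. Kupffer-like cells were deeper (median 14116 UMIs), and thinned to 2000 UMIs the shares were 3.93% in Kupffer-like and 1.60% in endothelial-like cells. Dendritic-like cells at 10.3 CPM (8.37 to 12.4) overlapped with endothelial-like cells, monocyte-like cells followed at 7.82 CPM (6.28 to 9.62), and T-like cells had 0.140 CPM. No UMI was found in 456 NK-like cells, which allows a share of up to 0.658%. In the tdTomato- library Kupffer-like cells had 16.1 CPM (11.5 to 21.9), dendritic-like cells 9.39 CPM (7.07 to 12.2) and monocyte-like cells 8.21 CPM (6.05 to 10.9), with overlapping intervals, against 1.23 CPM in B cell-like cells. The 22 endothelial-like cells had 36.6 CPM from 7 UMIs (14.7 to 75.4), an interval that holds the Kupffer-like level.

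*Tfpi* was, after *F8*, the most widely detected gene, with 394 CPM (389 to 400) and a UMI in 87.3% of tdTomato+ endothelial-like cells. Monocyte-like cells had 90.6 CPM (85.1 to 96.3), dendritic-like cells 62.3 CPM (57.6 to 67.4), Kupffer-like cells 55.8 CPM (51.8 to 60.1) and B cell-like cells 38.9 CPM (32.5 to 46.2), with a UMI in 12.3% of B cell-like cells. Only the dendritic-like and Kupffer-like intervals overlapped. The order of the other classes was not the same in the tdTomato- library, where Kupffer-like cells at 20.9 CPM (15.6 to 27.4) came next to the 22 endothelial-like cells at 199 CPM (141 to 273), and monocyte-like cells at 2.91 CPM, dendritic-like cells at 2.90 CPM, T-like cells at 3.68 CPM and B cell-like cells at 2.06 CPM had overlapping intervals.

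*Plat* was scarce. Endothelial-like cells of the tdTomato+ library had 171 UMIs, 3.41 CPM (2.92 to 3.96), with a UMI in 1.70% of cells against 0.901% of B cell-like cells, and the other 6 classes were between 0.233 and 1.39 CPM, where 12 of the 18 Kupffer-like UMIs lay in 1 cell. The tdTomato- endothelial-like level of 83.6 CPM came from 16 UMIs in a single cell and says nothing of the other 21. The share of cells with *Plat* was too near that of B cell-like cells to be read as expression over the class as a whole.

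**Figure D1:**
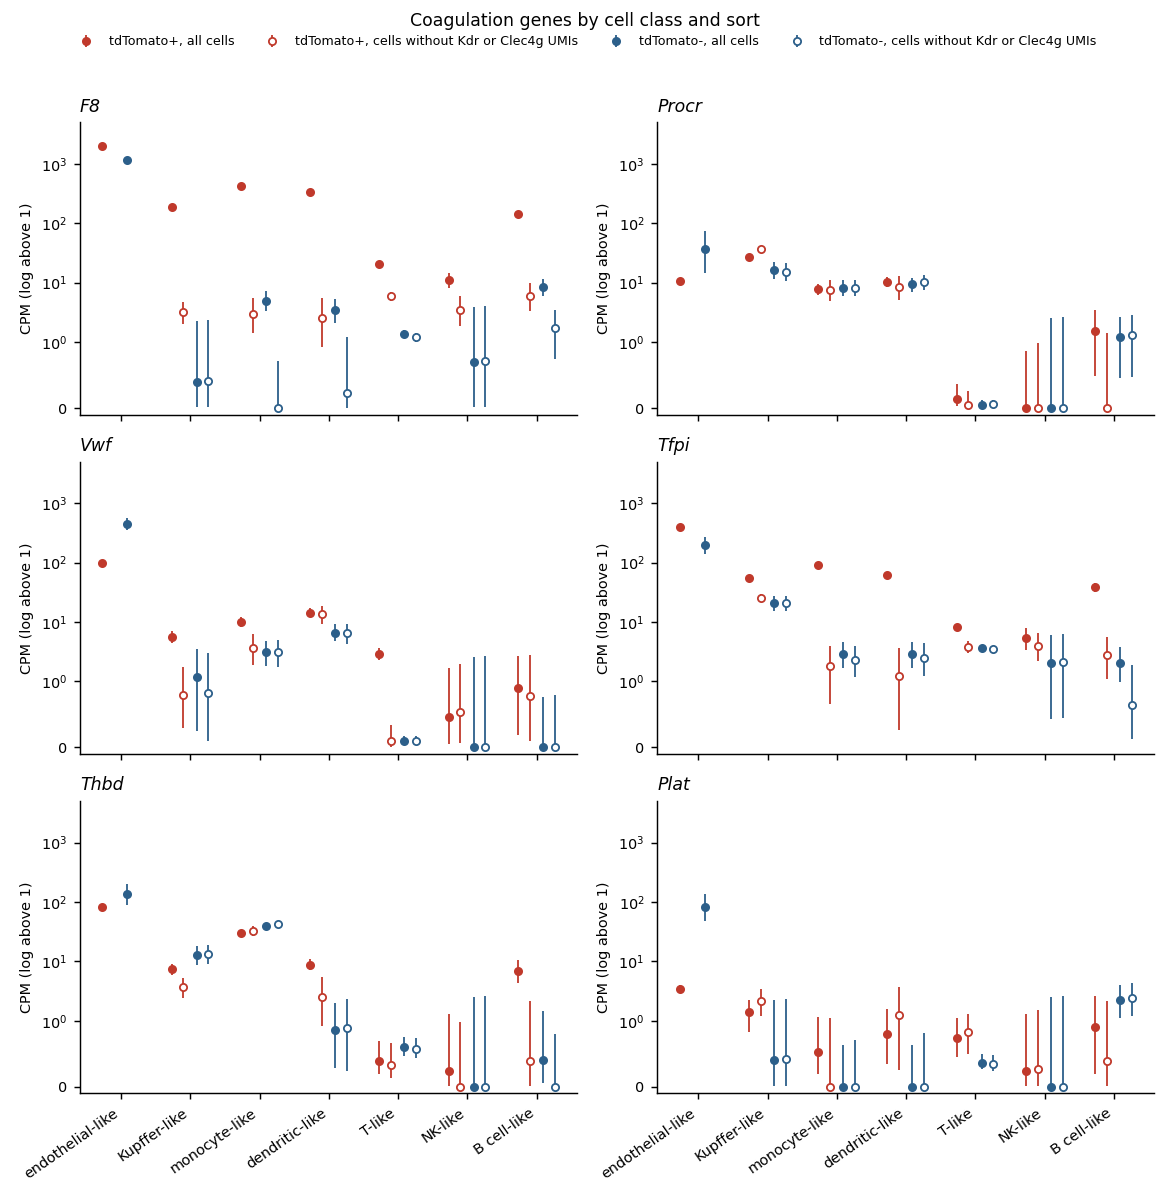
Levels (CPM, vertical axes, logarithmic above 1) of the 6 genes in 7 cell classes, red for the tdTomato+ and blue for the tdTomato- library. Filled points are all cells of a class, open points only cells without a *Kdr* or *Clec4g* UMI (not drawn for endothelial-like cells), and bars are 95% exact Poisson intervals. The red *F8* point of monocyte-like cells lies at 428 CPM and its open counterpart at 3.005 CPM, while the *Thbd* points of the same class lie at 29.5 and 32.8 CPM.

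Since genes of endothelium were counted in the other classes too, the level of each gene there was set against that of 6 endothelial genes (*Kdr*, *Clec4g*, *Gpr182*, *Cdh5*, *Oit3* and *Tek*), each as a percent of its own tdTomato+ endothelial-like level. In monocyte-like cells of the tdTomato+ library the 6 genes reached a median of 23.2% (21.6 to 24.9%), and *F8* reached 21.7% and *Tfpi* 23.0%. In B cell-like cells the 6 genes reached a median of 8.58% (6.88 to 9.93%), and *F8* reached 7.28% and *Tfpi* 9.86%. In both classes *F8* and *Tfpi* thus lay inside the range of the 6 genes. *Tfpi* lay above it in T-like cells, at 2.07% against 0.793 to 1.31%, and in NK-like cells, at 1.36% against 0.275 to 0.797%, and just below it in dendritic-like cells, at 15.8% against 16.2 to 19.7%. *Thbd* stood above it in monocyte-like cells, at 35.4%, and *Procr* stood above it in monocyte-like (73.2%), dendritic-like (96.02%), Kupffer-like (252%) and B cell-like cells (14.1%). In the tdTomato- library, where the 6 genes reached a median of 0.436% in monocyte-like and 0.0275% in Kupffer-like cells, *Thbd* reached 46.6% in monocyte-like cells, and *Procr* reached 76.9% in monocyte-like and 151% in Kupffer-like cells. *Cdh5* is itself present in Kupffer-like cells, at 364 CPM in the tdTomato+ and 314 CPM in the tdTomato- library, and so was *Stab2*, at 584 and 183 CPM.

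**Figure D2:**
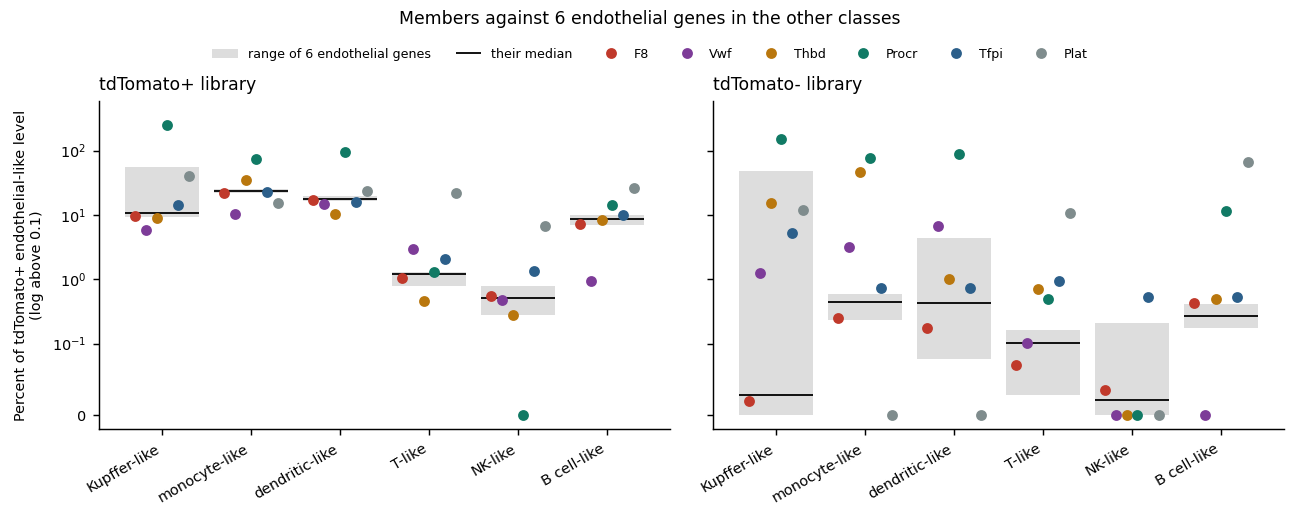
Level of each of the 6 coagulation genes (colored points) in the other classes, as a percent of its level in tdTomato+ endothelial-like cells (vertical axes, logarithmic above 0.1), for the tdTomato+ library on the left and the tdTomato- library on the right. The grey box spans the 6 endothelial reference genes and the black line is their median. *F8* lies in the box in tdTomato+ monocyte-like cells (21.7%, median of the references 23.2%), while *Procr* in Kupffer-like cells lies above it in both libraries (252 and 151%).

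The 2 sorts were compared within each other class, since both libraries hold these cells. *F8* was higher in tdTomato+ cells than in tdTomato- cells of the Kupffer-like class, with 188 against 0.402 CPM (2440 UMIs against 1, log2 ratio 8.87, interval 6.39 to 14.2), in monocyte-like cells, with 428 against 4.96 CPM (log2 ratio 6.43, 5.91 to 7.01), and in B cell-like cells, with 144 against 8.44 CPM (log2 ratio 4.09, 3.63 to 4.59). *Tfpi* had a log2 ratio of 1.42 (1.01 to 1.85) in Kupffer-like and 4.96 (4.27 to 5.75) in monocyte-like cells. The direction of *Thbd* differed by class. It was lower in tdTomato+ cells of the Kupffer-like class, with 7.34 against 12.9 CPM (log2 ratio -0.81, -1.40 to -0.18), and of the monocyte-like class, with 29.5 against 38.8 CPM (-0.40, -0.64 to -0.15). It was higher in tdTomato+ dendritic-like cells, with 8.76 against 0.853 CPM (88 UMIs against 5, log2 ratio 3.36, 2.08 to 5.02), and in B cell-like cells, with 6.93 against 0.412 CPM (23 UMIs against 2, 4.07, 2.06 to 7.20). *Procr* had 26.9 against 16.1 CPM in Kupffer-like cells (log2 ratio 0.74, 0.27 to 1.25), while its intervals covered no difference in monocyte-like cells, with 7.82 against 8.21 CPM (-0.07, -0.59 to 0.47), and in dendritic-like cells, with 10.3 against 9.39 CPM (0.13, -0.36 to 0.63). Among genes with at least 50 CPM in 1 library, 2.64% were at least 2-fold higher in tdTomato+ Kupffer-like cells, 8.97% in monocyte-like cells, 7.3% in dendritic-like cells and 4.52% in B cell-like cells. The members with such a level were *F8* and *Tfpi*, both past 2-fold in Kupffer-like, monocyte-like and dendritic-like cells, and *F8* alone in B cell-like cells. *Kdr* moved with them, at 176 against 0.804 CPM in Kupffer-like and 372 against 3.93 CPM in monocyte-like cells.

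The comparison was repeated in cells without a UMI of *Kdr* or *Clec4g*, which left 526 tdTomato+ and 169 tdTomato- Kupffer-like cells and 237 and 344 monocyte-like cells. *F8* then stood at 3.17 CPM in tdTomato+ Kupffer-like cells, against 0.415 CPM in tdTomato- ones, and at 3.005 CPM in tdTomato+ monocyte-like cells. No *F8* UMI was left in the tdTomato- monocyte-like cells, which allows a share of up to 0.872%. The intervals of *F8* without cells holding *Kdr* or *Clec4g* were 2.03 to 4.72 CPM in tdTomato+ Kupffer-like and 1.44 to 5.53 CPM in tdTomato+ monocyte-like cells. *Tfpi* had 1.80 CPM in tdTomato+ monocyte-like cells, against 2.30 CPM in tdTomato- ones, but 25.5 CPM (22.0 to 29.3) in tdTomato+ Kupffer-like cells, against 20.7 CPM (15.4 to 27.3) in tdTomato- ones, where the 2 sorts overlapped. *Thbd* had 32.8 CPM (26.9 to 39.5) in tdTomato+ monocyte-like cells, against 41.8 CPM (36.4 to 47.7) in tdTomato- ones, and *Procr* had 7.51 and 8.25 CPM there. In tdTomato+ monocyte-like cells *Thbd* and *Procr* were thus close to their levels over all cells of the class (29.5 and 7.82 CPM), whereas *Tfpi* in tdTomato+ Kupffer-like cells, at 55.8 CPM over all cells, was lower without those cells.

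In Kupffer-like cells, which line the sinusoids next to LSECs, *Procr* had 36.8 CPM (32.6 to 41.4) in tdTomato+ cells, against 15.3 CPM (10.8 to 21.2) in tdTomato- ones, both without *Kdr* or *Clec4g*. The UMIs were spread unevenly. Among 82 tdTomato+ Kupffer-like cells that lacked *Stab2* as well, 16 cells held 126 UMIs, 31 of them in 1 cell, and 3 cells held 50%. *Thbd* in these cells rested on few UMIs, at 3.70 CPM in tdTomato+ cells against 13.3 CPM in tdTomato- ones, where 10 of 32 UMIs lay in 1 cell.

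Outside endothelium, and at full depth, *Vwf* was seen most often in dendritic-like cells of the cluster led by *Xcr1*, *Naaa*, *Wdfy4* and *Cst3*. A UMI was present in 24.7% of 308 tdTomato+ and 25.2% of 119 tdTomato- cells of that cluster, at 14.5 and 11.99 CPM. The share was 0.901% in tdTomato+ B cell-like cells and 0 of 506 in tdTomato- ones, but the median depth of the cluster was 26781 UMIs. Without cells holding *Kdr* or *Clec4g*, *Vwf* had 17.1 CPM in 100 tdTomato+ cells, against 10.8 CPM in 102 tdTomato- ones. The other dendritic-like cluster, led by *Siglech*, had no *Vwf* UMI in 44 tdTomato+ and 152 tdTomato- cells of this kind, which allows shares of up to 6.82 and 1.97%. The platelet genes *Pf4* and *Itga2b* were at 5.45 and 0.847 CPM in the tdTomato+ *Xcr1*-led cells and at 15.7 and 0.308 CPM in the tdTomato- ones. *Procr* was also there, with 12.1 CPM in tdTomato+ cells against 16.3 CPM in tdTomato- ones.

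In T-like and NK-like cells the 6 genes were low in both libraries, unlike in tdTomato+ B cell-like cells, where *F8* was at 144 CPM and *Tfpi* at 38.9 CPM. tdTomato+ T-like cells had 20.8 CPM of *F8*, against 1.38 CPM in tdTomato- ones; without cells holding *Kdr* or *Clec4g* these levels were 5.91 and 1.22 CPM. Their *Tfpi* was at 8.17 and 3.68 CPM, and at 3.83 and 3.55 CPM without those cells. NK-like cells had 10.96 and 0.693 CPM of *F8* and 5.36 and 2.08 CPM of *Tfpi*. In neither class did a member reach 50 CPM, while 0.981% of tested genes were past 2-fold higher in tdTomato+ T-like cells and 1.14% in NK-like cells. The clusters that mixed endothelial RNA with that of T cells and other cells stood apart from these classes. Over all of them *F8* was at 960 CPM and *Tfpi* at 199 CPM in the tdTomato+ library, or 207 *Tfpi* UMIs per 1000 *F8* UMIs, against 199 per 1000 in endothelial-like and 211 per 1000 in monocyte-like cells. *Vwf* gave 5.93 UMIs per 1000 *F8* UMIs in the mixed clusters, against 49.2 per 1000 in endothelial-like cells.

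Compared directly with the other classes of the tdTomato+ library, endothelial-like cells had 4 genes with at least 50 CPM in 1 group, *F8*, *Vwf*, *Thbd* and *Tfpi*, and all 4 were more than 2-fold higher than in each of the 6 other classes. Such a difference was common. It was met by 21.1% of genes against Kupffer-like, 25.2% against monocyte-like, 29.4% against dendritic-like, 33.4% against T-like, 29.8% against NK-like and 35.6% against B cell-like cells. Against Kupffer-like cells the log2 ratio was 3.39 (3.33 to 3.45) for *F8*, 4.11 (3.78 to 4.46) for *Vwf*, 3.50 (3.21 to 3.81) for *Thbd* and 2.82 (2.71 to 2.93) for *Tfpi*. It was -1.33 (-1.53 to -1.13) for *Procr* and 1.29 (0.59 to 2.08) for *Plat*, which did not reach that level. The ratios of *F8* and *Vwf* to Kupffer-like cells were 9.30 and 6.86 when endothelial-like cells with a *Ptprc* UMI and Kupffer-like cells with *Kdr* or *Clec4g* were left out, and that of *Procr* was -1.81.

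To place the genes along the sinusoid, each tdTomato+ endothelial-like cell was gated from marker genes that include none of the 6. Cells with at least 2 UMIs over 2 or more of 10 vessel genes (*Gja5*, *Gja4*, *Sox17*, *Sema3g*, *Bmx*, *Hey1*, *Fbln2*, *Fbln5*, *Selp* and *Cd34*) were set aside first. The rest were called pericentral (at least 2 UMIs of *Wnt2*, *Wnt9b*, *Rspo3*, *Cdh13*, *Kit*, *Ptgs1*, *Lfng* and *Gatm*, and at least 2 times the periportal UMIs) or periportal to midzonal (the reverse, from *Efnb2*, *Dll4*, *Ltbp4*, *Msr1*, *Ntn4*, *Adam23*, *Jag1* and *Efnb1*). This gave 1247 pericentral, 1058 periportal and 746 intermediate cells, of which 293 of 3051 (9.60%) lay within 1 UMI of a limit, and 3129 cells in the vessel-gene gate. The vessel-gene gate was broad. Its cells had *Clec4g* at 4412 and *Stab2* at 2953 CPM, so most of them were sinusoidal, and it is used here only as a gate and not as a vessel type.

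Between these gates *Thbd* differed most of the 6 genes, and *F8* and *Tfpi* differed little. The order holds for these gates only, since *Plat* differed more when cells with vessel genes were not set aside. *Thbd* was at 88.5 CPM (82.6 to 94.8) in pericentral cells, with a UMI in 33.7%, and at 19.3 CPM (16.1 to 22.9) in periportal cells, with a UMI in 9.83%, a log2 ratio of 2.20 (1.93 to 2.47). Thinned to 2000 UMIs the shares were 13.3 and 2.71%. *F8* was at 2280 CPM (2250 to 2311) in pericentral and 1813 CPM (1782 to 1845) in periportal cells, a log2 ratio of 0.33 (0.30 to 0.36), and *Tfpi* had 472 and 403 CPM there (log2 ratio 0.23, 0.16 to 0.30). Of 4477 genes with at least 50 CPM in either gate, 1.68% were at least 2-fold higher and 1.68% at least 2-fold lower in pericentral cells, and the median log2 ratio was 0.01. Of the 6 genes 3 reached that level, *F8*, *Thbd* and *Tfpi*, and *Thbd* passed 2-fold. *Procr* had 6.43 CPM in pericentral and 4.53 CPM in periportal cells, and the interval of its log2 ratio of 0.51 (-0.14 to 1.18) covers no difference, and so does that of *Plat*, with 7 UMIs in pericentral and 11 in periportal cells (-1.10, -2.70 to 0.40). The *Plat* value depended on the processing. It was -2.07 (-4.57 to -0.12) after thinning to 2000 UMIs and -2.98 (-3.63 to -2.37) when cells with vessel genes were not set aside, an alternative added after seeing the data.

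*Vwf* was at 12.2 CPM (10.1 to 14.7) in pericentral and 5.11 CPM (3.56 to 7.11) in periportal cells, a log2 ratio of 1.26 (0.70 to 1.85). This direction rested on a single cluster. Of the 114 pericentral UMIs, 89 lay in 48 cells of the *Mgp*-led cluster, and without that cluster the log2 ratio was -0.90 (-1.70 to -0.12).

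Along finer steps the *Thbd* level changed mostly at the pericentral end. Cells outside the vessel-gene gate with at least 4 zone-marker UMIs were placed in 5 bins by the pericentral share of those UMIs. From the most periportal bin (0 to 20%) to the most pericentral (80 to 100%) *Thbd* was at 19.8, 20.7, 22.5, 32.9 and 111 CPM, with overlapping intervals between neighbouring bins up to that of 60 to 80%. *F8* was at 1780, 1909, 1980, 2180 and 2318 CPM and rose at each step beyond counting error, save between the bins of 20 to 40 and 40 to 60%. *Tfpi* was highest in the bin of 60 to 80%, at 508 CPM (487 to 531), against 451 CPM (435 to 468) in the most pericentral and 377 CPM (359 to 397) in the most periportal bin.

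**Figure D3:**
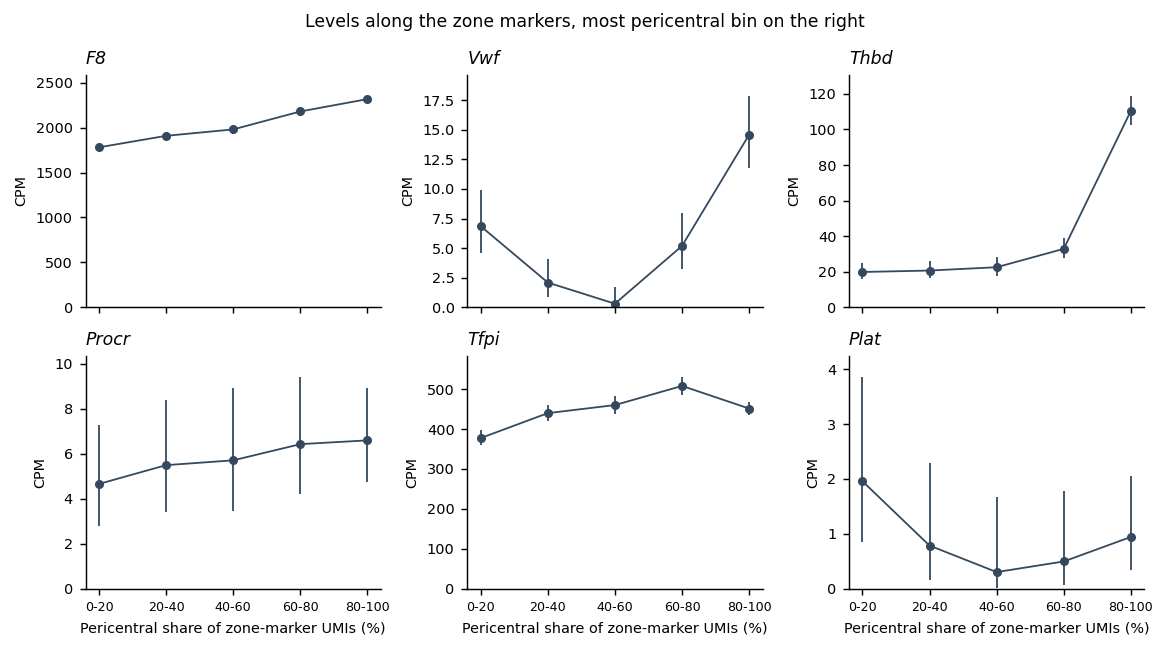
Levels (CPM, vertical axes starting at 0) of the 6 genes in 5 bins of tdTomato+ endothelial-like cells by the pericentral share of zone-marker UMIs (horizontal axis, percent, most pericentral bin on the right), with 95% exact Poisson intervals. *Thbd* stands at 111 CPM in the most pericentral bin and between 19.8 and 32.9 CPM in the others, while *F8* climbs from left to right in small steps.

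The 6 genes were left out of the unsupervised clustering, and their levels by cluster are a description without replicates. The clustering split the endothelial-like cells into 4 clusters. One of 541 tdTomato+ cells was led by *Mgp*, *Rspo3*, *Vwf* and *Selp*, held *Clec4g* at 1480 and *Stab2* at 491 CPM, and had *Ptprc* at 134 CPM. A pericentral cluster of 1413 cells was led by *Cdh13*, *Wnt2*, *Tenm1* and *Lhx6*, with *Thbd* among its 10 leading genes, a cluster of 2181 cells by *Lyve1*, *Flt4*, *Stab2* and *Stab1*, and a periportal cluster of 2045 cells by *Adgrg6*, *Mecom*, *Vegfc* and *Ntn4*. *Vwf* was at 724 CPM (701 to 746), with a UMI in 78.4% of cells, in the *Mgp*-led cluster, at 6.97 CPM in the pericentral, 0.658 CPM in the *Lyve1*-led and 50.5 CPM (47.0 to 54.3) in the periportal cluster. *Thbd* was at 187 CPM (176 to 199) in the *Mgp*-led and 176 CPM (169 to 184) in the pericentral cluster, which overlapped, and at 30.6 and 34.6 CPM in the *Lyve1*-led and periportal clusters, which overlapped too. *Procr* was at 40.7 CPM (35.6 to 46.4), with a UMI in 30.7% of cells, in the *Mgp*-led cluster, and between 6.30 and 7.69 CPM, with overlapping intervals, in the other 3. Without the *Mgp*-led cluster *Vwf* was at 18.6 CPM and *Procr* at 6.91 CPM over the class.

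*F8* and *Tfpi* were lowest in the *Mgp*-led cluster. *F8* was at 1434 CPM in the *Mgp*-led, 2346 CPM in the pericentral, 2128 CPM in the *Lyve1*-led and 1694 CPM in the periportal cluster, and *Tfpi* at 177, 414, 476 and 359 CPM in that order, with no overlap between clusters for either gene. Over the other 3 clusters together, the *Mgp*-led cluster had a log2 ratio of 5.28 for *Vwf*, 2.56 for *Procr*, 1.41 for *Thbd*, -0.51 for *F8*, -1.25 for *Tfpi* and -0.73 (-1.72 to 0.11) for *Plat*. Of 4744 genes at that level, 5.46% were at least 2-fold higher and 6.81% at least 2-fold lower in the *Mgp*-led cluster. Of the 4 members at that level, *Vwf* and *Thbd* were past 2-fold higher, *Tfpi* past 2-fold lower, and *F8* neither.

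**Figure D4:**
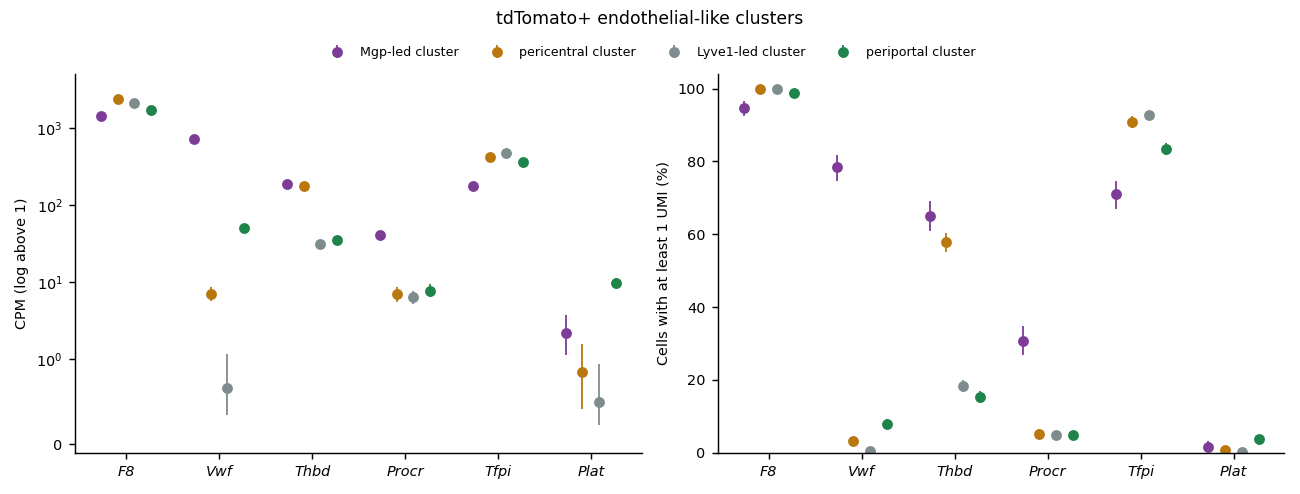
Levels (left, CPM, logarithmic above 1) and shares of cells with at least 1 UMI (right, percent) of the 6 genes in the 4 tdTomato+ endothelial-like clusters, with 95% exact Poisson and exact binomial intervals. *Vwf* is at 724 CPM and 78.4% of cells in the *Mgp*-led cluster, against 50.5 CPM and 8.02% in the periportal cluster.

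The periportal cluster was itself divided for *Vwf* and *Plat*. Of its cells, 998 fell into the vessel-gene gate and 843 into the periportal gate. *Vwf* was at 88.3 CPM (81.9 to 95.1) in the 998 and 6.60 CPM (4.60 to 9.18) in the 843 cells. *Plat* was at 16.0 CPM (13.3 to 19.0) and 2.07 CPM (1.04 to 3.71), so that the 998 cells held 127 of the 140 *Plat* UMIs of the cluster and most of the 171 of the class. *Thbd* was at 48.6 CPM in the 998 and 19.2 CPM in the 843 cells, and *Tfpi* at 328 CPM in the 998 and 388 CPM in the 843. The 998 cells carried the arterial gene *Gja5* at 40.9 CPM, *Cd34* at 68.8 CPM and *Fbln2* at 47.2 CPM. All 3 belong to the gate. In the *Lyve1*-led cluster the 816 cells of the same gate had *Vwf* at 0.260 CPM. Over all endothelial-like cells the vessel-gene gate had *Vwf* at 165 CPM against 9.21 CPM in the pericentral and periportal gates together (log2 ratio 4.17, 3.93 to 4.41), where 1.01% of 4438 genes were at least 2-fold higher and *Vwf* was the 1 of 4 members at that level to pass.

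Cells were thinned to 2000 UMIs to see which genes were found together. Of 6111 tdTomato+ endothelial-like cells deep enough, 3140 had *Tfpi* and 95.5% of these had *F8*, which 5766 of all had. Of 424 cells with *Vwf*, 344 (81.1%) had *F8* and 116 (27.4%) had *Thbd*, where 711 of the 6111 had *Thbd*. *Vwf* cells with *Tfpi* numbered 108 (25.5%), while *Tfpi* was found in 51.4% of all thinned cells. Of 42 cells with *Plat*, 16 had *Vwf* and 11 *Tfpi*. *F8* was thus found in a smaller share of the cells with *Vwf* (81.1%) than of all thinned cells (94.4%).

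Other genes of the pathway were taken from lists by function, and counted where they had at least 50 CPM. Of 17 initiation and procoagulant factors only *Lman1* and *Mcfd2*, the pair of proteins that export factors V and VIII from the endoplasmic reticulum, reached that level in the zone gates, and neither passed 2-fold. They were at 176 and 174 CPM in all endothelial-like cells. Over all genes at that level 1.68% were at least 2-fold higher in pericentral cells, and the lists are short, so these counts describe the genes named. Of 11 anticoagulant genes 5 reached it and 2 were higher in pericentral cells, *Gas6*, a vitamin K-dependent ligand related to protein S, at 282 against 80.2 CPM, and *Entpd1*, which degrades ADP, at 65.9 against 23.2 CPM. *Pros1*, the gene of protein S, was at 524 and 459 CPM. Of 11 fibrinolysis genes 3 reached it and *Anxa2*, a surface receptor for plasminogen and its activator, was higher in pericentral cells, at 208 against 99.8 CPM. The 1 thrombin receptor at that level, *F2r*, was at 362 and 332 CPM, and none of 9 regulators, *Maf* (985 and 876 CPM) and *Klf2* (673 and 846 CPM) among them, passed 2-fold. The 3 members at that level had a median log2 ratio of 0.33.

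In the *Mgp*-led cluster 3 initiation and procoagulant factors, 2 genes of von Willebrand factor handling and platelet adhesion, 5 anticoagulant genes, 3 fibrinolysis genes, 1 thrombin receptor and 9 regulators had at least 50 CPM in either group, and over all genes at that level 5.46% were past 2-fold higher and 6.81% past 2-fold lower. The pathway genes past 2-fold higher were *F5*, the gene of factor V, at 68.2 CPM, *Selp*, the platelet and leukocyte adhesion receptor stored with von Willebrand factor, at 1391 CPM, *Entpd1* at 770 CPM, *Anxa2* at 376 CPM and its partner *S100a10* at 846 CPM. *Stab2* and *Maf* were past 2-fold lower, at 491 and 285 CPM. *Selp* is 1 of the vessel-gene markers. In monocyte-like cells *F10*, the gene of factor X, was at 119 CPM in the tdTomato+ and 111 CPM in the tdTomato- library, and *F13a1*, the A chain of factor XIII and a marker used in naming them, at 356 and 717 CPM. *F3*, the gene of tissue factor, was at 0.0797 CPM in endothelial-like and 1.05 CPM in tdTomato+ monocyte-like cells.

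Genes whose levels followed each member were sought over 17 profiles, the classes of both libraries with at least 50 cells, by the Pearson correlation of log2(CPM + 1). Beside the classes compared above, the profiles included the mixed clusters of both libraries and the hepatocyte-like and neutrophil-like cells of the tdTomato- library. For *F8* they were *Egfl7*, *Adgrf5* and *Tinagl1* (r = 0.996 each), and for *Tfpi* they were *Hyal2* (0.9949), *Lyve1* (0.985) and *Npl* (0.984). For *Thbd* they were *Mmp14* (0.947), *Adgrg6* (0.938) and *Hgf* (0.929), for *Procr* *Tom1* (0.9647), *Cyp27a1* (0.946) and *Asph* (0.9398), for *Vwf* *Ednrb* (0.924), *Mtch1* (0.913) and *Dpagt1* (0.903), and for *Plat* *Bcam* (0.797), *Spns2* (0.783) and *Mxra8* (0.780). The profiles of a library share its endothelial RNA, so these values describe the 2 libraries. *F8* and *Tfpi* had near matches, and *Plat*, with few UMIs, had none close. The highest *Plat* level of a profile, 6.20 CPM, lay outside the classes compared above, where endothelial-like cells had 3.41 CPM. The endothelial-like class gave a profile in the tdTomato+ library only, so these matches cannot separate genes of sinusoidal endothelium from those of other endothelium.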

How the data were processed

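Gene expression was measured in 2 libraries of sorted liver cells, 1 per sort, and the T cell receptor libraries of the study were not used here. The authors deposited unscaled UMI counts that Cell Ranger gave for each gene in each barcode (10.0.0 in the matrix headers), and the submitters' notes name mm10 as the genome. Of the 33696 genes counted, 32012 IDs were found in GENCODE M21. The libraries shared 84 barcodes, and 0 columns were left out for lack of a sample. Barcodes with fewer than 300 genes or over 10% mitochondrial counts were removed. For clustering, each cell was scaled to a total of 10000 and the natural log taken, then 2000 variable genes and 30 principal components gave a graph of 15 neighbors, and both libraries were clustered together at a resolution of 1 (scanpy 1.11.5, anndata 0.12.19, leidenalg 0.10.2, igraph 0.11.9, seed 0; pandas 2.3.3, matplotlib 3.10.9, scipy 1.17.1, numpy 2.4.6, python 3.11.15). No doublet caller was run. Clusters with markers of endothelium and of another cell were kept apart instead.

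Clusters were named from marker lists, with a mean log2 enrichment of at least 0.5 and 3 markers at 10 CPM. Endothelial-like clusters had under 200 CPM of *Ptprc*, mixed clusters at least 1000 CPM of *Kdr* and *Stab2* together, and T-like clusters at least 300 CPM of *Cd3e*. These limits were set after the clusters had been seen. The members, marker lists, pathway lists and gates were chosen with earlier results of these data known. Named in full were the 6 members. Of each pathway list the text gives counts and at most 5 genes, those with the highest level among those at 50 CPM, and for each member the 3 genes with the highest correlation. *F3*, *F5*, *F10*, *F13a1* and *Plat* in 1 further cluster were named outside this rule, after their values had been seen.

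Levels are summed counts per 1000000 UMIs (CPM), shares are of cells with at least 1 UMI, and both were recomputed with cells thinned to 2000 UMIs, without shallower cells. The floor for a count of 0 is 3 counts. A gene counted as past 2-fold with at least 50 CPM in 1 group and a ratio of at least 2. The calculation was tested on simulated data. Alternatives were a stricter cell filter, resolutions of 0.5 and 2, equal weight per cell, zone gates at 4 UMIs or from every second marker, cells without *Ptprc* or without endothelial UMIs, and thinning. Zone gates without the vessel-gene step, endothelial-like cells without the *Mgp*-led cluster, and other cells without *Kdr* or *Clec4g* were added after seeing the data.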

Additional observations from a re-analysis of the deposited data

Results flagged for a closer look

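A signal of *Plat* lay outside the compared classes. In the cluster led by *Dcn*, *Igfbp6*, *Rarres2* and *Igfbp5* (78 tdTomato+ and 7 tdTomato- cells) *Plat* was at 103 CPM (177 UMIs in 41 of 85 cells), against 3.41 CPM in tdTomato+ endothelial-like cells. The cluster had been set apart because it also held endothelial RNA, with *Kdr* at 31.8% of its endothelial-like level, and its tdTomato+ cells carried the mesothelial genes *Upk3b* and *Msln* at 2154 and 1262 CPM. The same tdTomato+ cells had *Thbd* at 72.3 CPM and *Procr* at 26.4 CPM, while *Vwf* was at 1.89 CPM. The part of the endothelial RNA in these levels was not tested.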

How the results depend on the processing

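The ratios between endothelial-like and Kupffer-like cells depended most on which cells were kept, while their direction held for all 6 genes in every alternative that gave a ratio. *Plat* had a ratio in 5 alternatives and each of the other genes in 6. With endothelial-like cells without *Ptprc* and other cells without *Stab2*, *Kdr* or *Clec4g*, the log2 ratio was 8.85 for *F8*, 5.41 for *Vwf*, 5.26 for *Thbd*, -3.70 for *Procr* and 4.28 for *Tfpi*. With *Stab2* allowed, it was 9.30, 6.86, 4.49, -1.81 and 3.98 for the same genes. A resolution of 2 gave 3.66 for *F8* and 3.01 for *Tfpi*, and equal weight per cell 3.65 for *F8*. In the zone comparison *Thbd* stayed between 2.01 and 2.22 over all 10 alternatives. Without the vessel-gene step *F8* was at 0.28, *Tfpi* at 0.11, *Plat* at -2.98 and *Vwf* at 1.95. *F8* was at 0.29 with every second zone marker, and *Vwf* at 0.63 with equal weight per cell and at 1.90 after thinning, where *Plat* was at -2.07 (-4.57 to -0.12), against -1.10. The *Vwf* ratio turned to -0.90 without the *Mgp*-led cluster, because 89 of its 114 pericentral UMIs lay there. For the other values the cause was not tested. The *Vwf* level over endothelial-like cells ranged from 18.6 to 98.5 CPM, lowest without that cluster. No paired analysis was possible because the labels give no replicate numbers and each sort gave 1 library, and no replicate could be left out. Depth limits *Procr* between the zones, and the 22 tdTomato- endothelial-like cells.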
